A study of Homo sapiens with 8 samples.

Results

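The S100 genes described here are the 10 rows of the gene count table whose identifiers map to S100A2, S100A4, S100A6, S100A7, S100A8, S100A9, S100A10, S100A11, S100A14 and S100A16, of 58233 rows in all. They lie in the S100 cluster of human chromosome 1q21, between chr1:151982915-153616986 of hg38. The members were chosen by their measured expression in knockout against control cells, so the knockout against control values below are given as a description, with no p-value and nothing read from their calls, and the tests are kept for the response to irradiation. The wording of that choice, S100 genes including S100A4 that are higher in the knockout, held for S100A4. Of the other 8 members with enough counts to be tested, 7 lay at or below the control level and S100A11 lay slightly above it, within the spread between replicates.

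RNA-sequencing was performed in MCF10A-Hras cells, a non-tumourigenic human mammary epithelial line that carries H-Ras, as do all groups here. The control cells were wild type for RBM6, an RNA-binding splicing factor. The knockout cells were KO1, a single clone made with a Cas9 nickase and a pair of guides to RBM6. Cells of each genotype were left untreated or collected 12 h after 5 Gy of ionizing radiation (IR), in 2 biological replicates (A and B) per group, which gave 8 libraries of 15355281 to 29832009 counts. Since there is 1 clone, the effect of losing RBM6 cannot be told apart from other features of that clone. RBM6 mRNA itself was 66.8 and 68.7 normalized CPM (counts scaled to library size with edgeR's TMM factors) in untreated control cells and 61.4 and 63.1 in untreated KO1 cells. The count of the whole transcript in untreated cells therefore does not show the edit. After IR the log2 difference between KO1 and control was −0.40 (SE 0.20, adjusted p = 0.535, edgeR). The 15 genes listed here as basal mammary markers, among them the keratin KRT5 but also EPCAM, CDH1 and EGFR, all had at least 10 counts in every library. So did 6 of 9 luminal markers, while PGR and KRT19 had at most 3, so this bar alone does not tell basal from luminal cells. In untreated control cells the basal list summed to 13810 to 16668 normalized CPM and the luminal list to 2848 to 3056.

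S100 proteins are small calcium sensors of vertebrates. Each folds around a pair of EF-hands, and most act as dimers that open on binding calcium and then grip a target protein. Inside epithelial cells they meet annexins, cytoskeletal proteins and p53. Some are secreted and act on the receptors RAGE and TLR4, and S100A8 and S100A9 together form calprotectin, a protein of neutrophils that stressed epithelia also make. In the genome the family sits within the epidermal differentiation complex, beside filaggrin, involucrin and the late cornified envelope genes.

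The values below turn on S100A4, S100A8 and S100A9, so the 250 bases before the transcription start of each are shown from RefSeq on GRCh38.p14, 5′ to 3′ on the gene's own strand. All 10 members matched an entry. TATAAA (the TATA box), TGANTCA (AP-1), TTNNGNAA (C/EBP) and a p53 half-site were searched on both strands, and matches are in capitals.

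S100A4, chr1:153545807-153546056, minus strand: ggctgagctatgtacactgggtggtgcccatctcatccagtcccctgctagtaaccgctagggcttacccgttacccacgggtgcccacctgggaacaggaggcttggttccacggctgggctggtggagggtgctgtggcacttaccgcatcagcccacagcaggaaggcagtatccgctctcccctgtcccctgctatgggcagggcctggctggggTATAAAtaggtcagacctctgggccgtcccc
S100A8, chr1:153391189-153391438, minus strand: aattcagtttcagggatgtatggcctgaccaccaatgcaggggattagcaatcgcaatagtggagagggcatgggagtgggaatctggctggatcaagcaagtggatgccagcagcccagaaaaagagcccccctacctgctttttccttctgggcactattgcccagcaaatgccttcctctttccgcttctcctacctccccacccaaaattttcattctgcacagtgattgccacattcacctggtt
S100A9, chr1:153357604-153357853, plus strand: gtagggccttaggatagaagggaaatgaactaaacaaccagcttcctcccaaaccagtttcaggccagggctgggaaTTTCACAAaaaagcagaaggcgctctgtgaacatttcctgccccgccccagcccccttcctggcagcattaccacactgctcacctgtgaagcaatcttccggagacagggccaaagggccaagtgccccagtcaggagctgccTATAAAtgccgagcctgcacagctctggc

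The TATA box pattern began 31 bases before the start in S100A4, 29 in S100A9 and 28 in S100A7, and was found in 10.7% of 35116 promoter windows of this length. The C/EBP pattern, on the reverse strand 173 bases before the S100A9 start and also present in S100A6 and S100A11, was found in 33.2%. S100A2 held the AP-1 pattern at 52 bases, which 6.57% of windows held, and S100A7 and S100A16 held the p53 half-site, found in 5.57%. A full p53 site was not searched for. S100A8, S100A10 and S100A14 held none of these letters in this window. S100A8 and S100A9, whose products pair, thus differed in these patterns within the windows shown. These windows rest on 1 RefSeq start per gene. In GENCODE v44 the S100A8 gene, on the minus strand, reaches only to base 153391073, while its window begins at base 153391189. The bases between were not searched, so the patterns nearer that other start are not known here.

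In untreated control cells the family held some of the most abundant mRNAs of the cell. Counted per kb of exon, S100A6 (calcyclin) was at 3855 ± 967 normalized CPM per kb (SD, n = 2) and ranked 11 among all genes with a length, and S100A2, a basal epithelial S100 protein, was at 3105 ± 536 and ranked 14. These levels did not differ beyond their spread. S100A11, a partner of annexin A1, followed at 1247 ± 28.3, and S100A14, an epithelial member, was within its own spread of that value at 1143 ± 215. S100A9 at 898 ± 241 and S100A16 at 803 ± 14.8 formed the next step, and the S100A9 libraries overlapped those of S100A14 and S100A16. S100A10, the partner of annexin A2, was at 731 ± 62.3, and its libraries lay below those of S100A16. S100A8 was lower at 166 ± 31.2 and S100A4 lower still at 50.2 ± 19.5 per kb, with ranks of 218 and 753. S100A7 (psoriasin) had 1 to 4 counts per library in all 8 libraries, close to the 3 counts that a count of 0 allows, and was not tested or given a fold. The 9 other members had at least 562 counts in every library. Together the 10 genes took 1.21% and 1.52% of all counts in untreated control cells, 1.32% and 1.004% after IR, 1.12% and 1.38% in untreated KO1 cells, and 1.17% and 0.932% in irradiated KO1 cells. The untreated control libraries lay above the irradiated KO1 libraries, and the other pairs of groups overlapped.

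**Figure D1:**
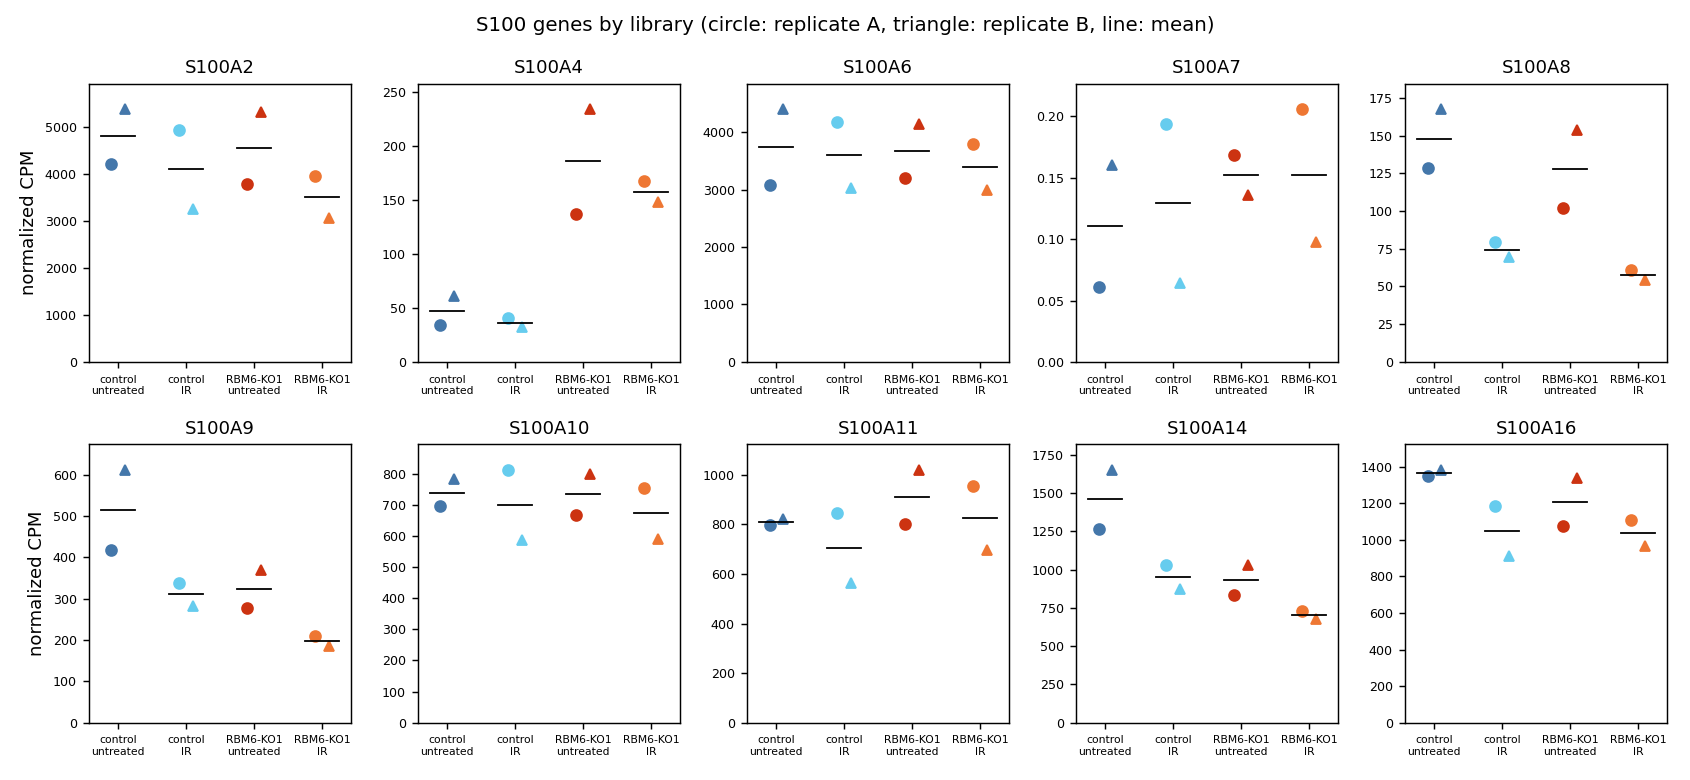
Level of each S100 gene in the 8 libraries, as normalized CPM on linear axes that start at 0, with circles for replicate A, triangles for replicate B and a line at the mean of 2. S100A4 stands higher in both KO1 groups, S100A8 is lower after IR in both genotypes, and S100A7 stays at 1 to 4 counts.

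S100A4, which binds non-muscle myosin and is known for its part in cell motility and metastasis, was the member that differed most between KO1 and control cells. Its level was 34.5 and 60.6 normalized CPM in untreated control cells and 136.8 and 234.1 in untreated KO1 cells. After IR it was 40.2 and 32.6 in control cells and 167.0 and 147.5 in KO1 cells. All 4 KO1 libraries were above all 4 control libraries. The fitted log2 difference between KO1 and control was 1.94 (SE 0.24, 3.85-fold) before IR and 2.12 (SE 0.18, 4.36-fold) after IR, and it ranged from 1.52 to 2.43 and from 1.97 to 2.26 when any 1 library was left out. With the trend of fold change on gene length removed the differences were 1.88 and 2.11. S100A4 was chosen as higher in the knockout, so these values describe its size and are no test of its direction. S100A4 is also expressed by fibroblasts. The summed level of the 8 fibroblast markers was 81.0 to 81.6 normalized CPM in untreated control cells, 91.2 to 108 in irradiated control cells, 119 to 155 in untreated KO1 cells and 173 to 211 in irradiated KO1 cells, and most of it was decorin (DCN). DCN differed between KO1 and control by 0.91 (SE 0.16) before and 1.11 (SE 0.18) after IR on the log2 scale, while COL1A1 was lower, at −0.74 (SE 0.24) and −1.17 (SE 0.22), and PDGFRB was at −0.70 (SE 0.43) after IR. COL1A2, COL3A1 and THY1 had at most 3 counts in any library, and 2 of the 8 markers had at least 10 counts in all libraries. Whether the markers and S100A4 are linked was not tested. In bulk RNA, fewer cells of a type and less RNA per cell cannot be told apart.

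The other members differed less between genotypes. By the threshold used throughout (adjusted p under 0.05 and at least 2-fold), 1 of the 9 tested members was past it in the knockout against control comparison both before and after IR, where 3.12% and 1.17% of all tested genes were. By adjusted p alone 3 members (S100A4, S100A9 and S100A14) were past it before IR, where 6.12% of genes were. Nothing is read from these counts, since this comparison was used to choose the members. S100A14 was 1265 and 1654 normalized CPM in untreated control cells against 832 and 1032 in KO1 cells, a log2 difference of −0.66 (SE 0.16), and after IR 1031 and 877 against 732 and 680, a log2 difference of −0.43 (SE 0.16). The KO1 libraries lay below the control libraries in both conditions. S100A9 behaved alike, with log2 differences of −0.68 (SE 0.18) and −0.64 (SE 0.16) and no overlap in either condition. S100A8 was −0.23 (SE 0.18) with overlapping libraries before IR and −0.35 (SE 0.17) without overlap after it. S100A2, S100A6, S100A10 and S100A16 lay between −0.21 and −0.01 in both conditions. S100A11 was at 0.16 (SE 0.14) and 0.24 (SE 0.24), with overlapping libraries. The median of the 9 members was −0.09 before and −0.08 after IR, against 0.01 and 0.02 for all genes tested.

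**Figure D2:**
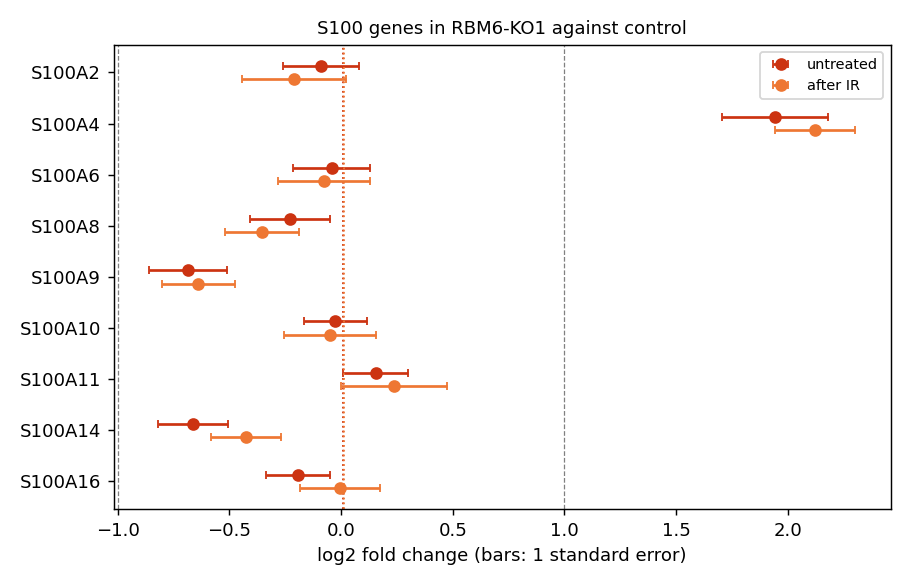
Log2 difference between KO1 and control cells for the 9 tested S100 genes, untreated (dark) and after IR (light), with bars of 1 SE, dotted lines at the median of all genes and dashed lines at 2-fold. S100A4 is near 2 in both conditions, S100A9 and S100A14 are below 0, and the rest lie near 0.

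The comparison of irradiated with untreated cells asked whether DNA damage moved the family, and it was not used to choose the members. S100A8 fell in both genotypes. In control cells S100A8 was 128.4 and 167.7 normalized CPM before IR and 79.4 and 69.2 after it, a log2 fold change of −1.01 (SE 0.18, adjusted p = 0.0122, edgeR quasi-likelihood test). In KO1 cells it was 102.3 and 153.6 before and 61.1 and 54.5 after IR, a log2 fold change of −1.16 (SE 0.20, adjusted p = 0.0192, edgeR). The irradiated libraries lay below the untreated ones in each genotype. The control value stood at the 2-fold limit, and its call was lost in 7 of 11 other settings. S100A8 stayed below 0 in all 11, with log2 fold changes of −1.20 to −0.76. With all libraries kept, adjusted p was 1.22e-05 to 0.0310 (edgeR or DESeq2). The call was lost without replicate B of the untreated control cells, at −0.79, and without replicate B of the irradiated ones, at −0.91. In KO1 cells the call held in 9 of 11 settings (log2 fold changes of −1.41 to −0.83, adjusted p of 9.42e-08 to 0.0459), and was lost without replicate B of the untreated cells, at −0.83.

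S100A9, the other subunit of calprotectin, was 416.7 and 611.9 normalized CPM in untreated control cells and 338.8 and 282.9 after IR. In KO1 cells it was 276.9 and 370.3 before and 210.4 and 186.3 after IR. The irradiated libraries were again the lower in each genotype, without overlap. The log2 fold changes were −0.74 (SE 0.20, adjusted p = 0.0531, edgeR) in control and −0.72 (SE 0.17, adjusted p = 0.0462) in KO1 cells, both under 2-fold, so neither counts as called. By adjusted p alone 2 of 9 members, S100A8 and S100A9, were lower in KO1 cells, where 3.23% of genes were. The S100A9 value in KO1 cells kept an adjusted p under 0.05 in 6 of 11 other settings (range 0.000968 to 0.346), and did not without replicate B of the untreated cells (−0.49) or of the irradiated cells (−0.62). Without replicate A of the untreated control cells the control value was −1.005 with an adjusted p of 0.0346, and without replicate B it was −0.43 with an adjusted p of 0.622 (range over 11 settings 5.51e-06 to 0.622).

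S100A14 was the next lowest in control cells, at −0.62 (SE 0.19, adjusted p = 0.0699, edgeR), and stood at −0.42 in KO1 cells (SE 0.16, adjusted p = 0.116); its irradiated libraries did not overlap the untreated ones in either genotype. S100A16 was at −0.39 in control and −0.23 in KO1 cells, and S100A2 at −0.24 and −0.39. S100A4, which differed most by genotype, was at −0.40 (SE 0.25, adjusted p = 0.336) and −0.25 (SE 0.23, adjusted p = 0.480). S100A6 and the annexin partners S100A10 and S100A11 lay between −0.21 and −0.06 in both genotypes, and their libraries overlapped between irradiated and untreated cells.

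Of the 9 tested members 1 was called in each genotype, S100A8, which was lower, where 1.91% of genes in control cells and 1.97% in KO1 cells were called lower. Control cells had 4 of 9 members without overlap and lower (S100A8, S100A9, S100A14 and S100A16), beside 27.6% of all genes tested, and KO1 cells had 3 of 9 (S100A8, S100A9 and S100A14), beside 29.5%. All 9 fitted values were below 0 in both genotypes, but with the trend on gene length removed 6 in control and 5 in KO1 cells were. The median of the members was −0.39 in control and −0.25 in KO1 cells, against 0.02 and −0.01 for all genes.

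**Figure D3:**
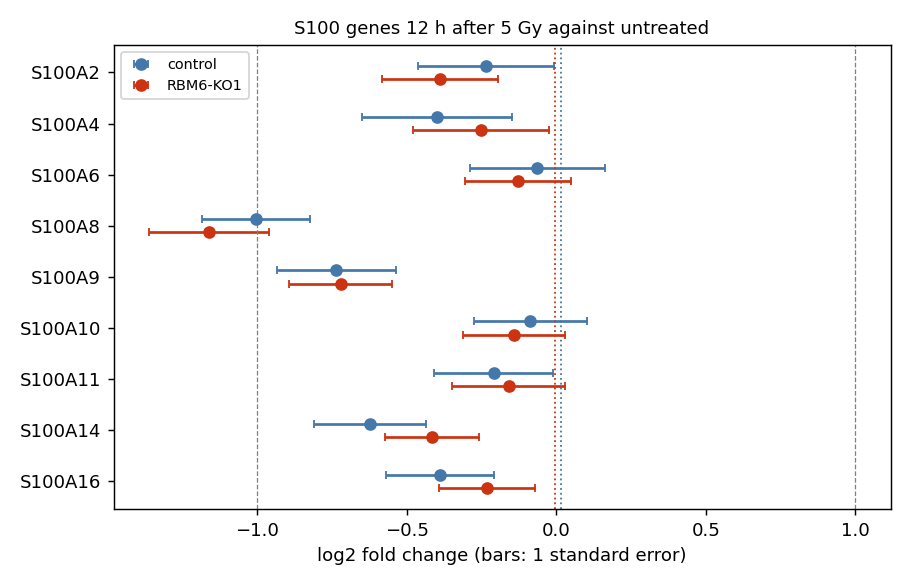
Log2 fold change 12 h after 5 Gy against untreated cells for the 9 tested S100 genes in control and KO1 cells, with bars of 1 SE, dotted lines at the median of all genes and dashed lines at 2-fold. S100A8 reaches −1.01 and −1.16, S100A9 follows near −0.7, and S100A6 and S100A10 lie near 0.

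Gene length moved with these values. The exons of the members add up to 486 to 1701 bases, and among all genes of up to 1 kb the median log2 fold change after IR was −0.28 in control cells (quartiles −0.72 and 0.08, 1372 genes) and −0.39 in KO1 cells (quartiles −0.89 and −0.04, 1449 genes), while genes over 8 kb had medians of 0.18 and 0.15. Genes of 1 to 2 kb had medians of −0.24 and −0.25. S100A8, at 891 bases, lay below the lower quartile of its length class in both genotypes, and S100A9, at 573 bases, did so in control but not in KO1 cells. S100A14, at 1277 bases, lay below it in control cells only. The other 6 tested members lay within the quartiles. Libraries differed in the same way: relative to the mean of the 8 libraries, 1740 short genes were lowest in replicate B of the irradiated control (median −0.35 on the log2 scale) and replicate B of the irradiated KO1 cells (−0.30), and the members were lowest in the same libraries, at −0.34 and −0.26. With the trend on length removed, an alternative chosen after seeing the data, S100A8 was at −0.76 (adjusted p = 0.00452, edgeR) in control and −0.83 (adjusted p = 0.0148) in KO1 cells, S100A9 at −0.47 and −0.32, and the members' median at −0.16 and −0.04.

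The response to IR was not shown to differ between genotypes. In the interaction test over all 8 libraries the 9 members lay between −0.15 and 0.21 (SE 0.23 to 0.40), with unadjusted p from 0.392 to 0.944 and adjusted p of 1.0 by edgeR. No member and 0% of the 16549 genes tested were called, DESeq2 called none either, and 306 genes but no member had an unadjusted p under 0.05. With SEs of this size a moderate difference in response would not have been detected. For S100A8 the interaction was −0.15 (SE 0.29) and for S100A4 it was 0.15 (SE 0.40).

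The balance of the calprotectin subunits could be read within each library, as S100A9 counts per S100A8 count. It was 3.24 and 3.65 in untreated control cells and 4.27 and 4.09 after IR. In KO1 cells it was 2.71 and 2.41 before and 3.44 and 3.42 after IR. Irradiated libraries had the higher ratio in both genotypes and KO1 libraries the lower one in both conditions, without overlap. The means were 3.45 ± 0.29 and 4.18 ± 0.13 in control, and 2.56 ± 0.21 and 3.43 ± 0.02 in KO1 cells (SD, n = 2). An exact two-sided permutation test of 2 against 2 libraries cannot go below p = 0.333, and no model of the ratio was fitted, so these differences are given without a test. The exons of each gene, joined over its annotated transcripts, add up to 573 bases in S100A9 and 891 in S100A8. These are not lengths of single mRNAs, and what share of these ratios comes from transcript length was not tested.

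**Figure D4:**
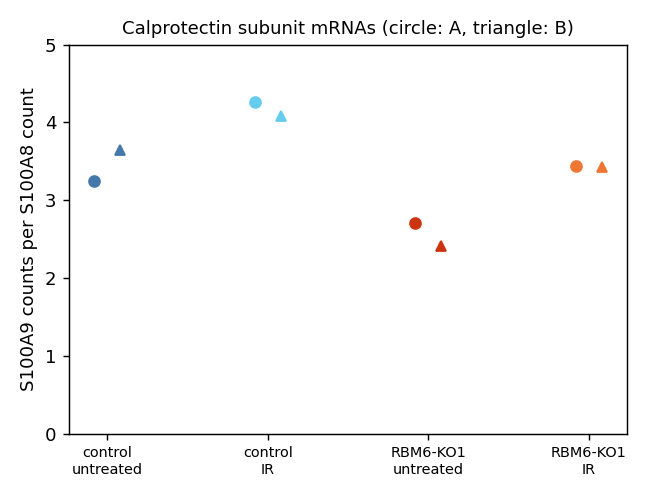
S100A9 counts per S100A8 count in each library, on an axis from 0, with circles for replicate A and triangles for replicate B. The ratio runs from 2.41 in untreated KO1 cells to 4.27 in irradiated control cells and is higher after IR in each genotype.

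S100A8 and S100A9 are best known from myeloid cells. PTPRC (CD45), CD68, FCGR3B, CSF3R, LYZ and FCN1, 6 of the 11 myeloid markers, had at most 3 counts in every library. The sum of the list was 16.7 to 22.1 normalized CPM in untreated control cells, 17.9 to 20.7 after IR, 9.89 to 10.1 in untreated KO1 cells and 11.1 to 11.9 after IR, most of it CD14, which was lower in KO1 cells by log2 differences of −1.81 (SE 0.27) before and −1.19 (SE 0.22) after IR. Of the 4 myeloid markers tested after IR in control cells, 2 lay above and 2 below 0. ITGAM had 0 and 2 counts before and 16 and 23 after IR there (log2 fold change 3.78, SE 0.85, adjusted p = 0.0299, edgeR). It passed the count filter through the irradiated libraries, so its rise says nothing about the list, and it was not tested after IR in KO1 cells. CSF1R was at 1.23 (SE 0.34, adjusted p = 0.0560, edgeR) and MPO at −1.79 (SE 0.55, adjusted p = 0.0724) in control cells. Any part of these markers in the S100A8 and S100A9 values was not tested. Of 22 genes known to induce S100A8 and S100A9 or to carry the inducing signal, 19 were tested. They included IL1A, IL1B, NF-κB subunits, C/EBP factors and STAT3. None was called in any of the 4 pairwise comparisons or the interaction by edgeR. Still, 5 of the 19 had an unadjusted p under 0.05 in each IR comparison, beside 3918 of 15412 genes in control and 4613 of 15598 in KO1 cells. By adjusted p alone FOSL1 was lower after IR in both genotypes, at −0.65 and −0.58. HIF1A (0.89), IL1A (0.68) and IL1B (0.82) were higher after IR in KO1 cells. These 4 were all under 2-fold and were picked out after their values were seen. In untreated KO1 against control cells 1 inducer was higher by adjusted p alone, IL1R1 (0.90). There 2 were lower, CEBPD (−0.66) and STAT3 (−0.55), beside 6.12% of all genes in either direction. All 3 were under 2-fold.

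Of the proteins that S100 family members bind, 23 of 34 were tested, and after IR 1 rose and 1 fell in control cells and 1 fell in KO1 cells, while 1.68% of all genes rose and 1.91% fell in control cells and 1.13% rose and 1.97% fell in KO1 cells. The gene that fell in both was AGER, which encodes RAGE, the receptor of several S100 proteins. AGER was 10.7 and 9.11 normalized CPM in untreated control cells and 3.95 and 3.57 after IR, a log2 fold change of −1.41 (SE 0.26, adjusted p = 0.0145, edgeR). In KO1 cells it was 8.71 and 7.74 before and 2.99 and 1.86 after IR, a log2 fold change of −1.78 (SE 0.29, adjusted p = 0.0166). AGER was called in all 11 other settings in both genotypes, at −1.24 and −1.64 with the length trend removed. TLR4, the other receptor, was low, at 3.13 and 2.62 normalized CPM in untreated and 5.43 and 6.40 in irradiated control cells, and did not pass (1.04, SE 0.29, adjusted p = 0.0566 in control; 0.85, SE 0.29, adjusted p = 0.0954 in KO1 cells). The receptors thus lay on opposite sides of 0. AHNAK2, a giant protein related to AHNAK, which binds S100A10 and annexin A2, rose in control cells by 1.30 (SE 0.19, adjusted p = 0.00489) and was at 1.02 (adjusted p = 0.0513) in KO1 cells. Annexin A2 itself, ANXA2, was at −0.27 and −0.16 without passing, and the ratio of its counts to those of S100A10 was 3.08 to 4.24 in the 8 libraries. It was 3.93 and 3.53 in untreated and 3.08 and 3.51 in irradiated control cells, without overlap, and the other pairs of groups overlapped. PLAT, the tissue plasminogen activator that the S100A10 and annexin A2 complex binds, was lower in KO1 cells by log2 differences of −1.22 (SE 0.21) before and −1.09 (SE 0.19) after IR.

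Of the 11 other S100 genes, 6 had at most 5 counts in every library, with S100A7A and S100B at 0 in all. S100A3, which lies next to S100A4, was 53.6 and 55.1 normalized CPM in untreated control cells and 40.0 and 23.2 after IR (log2 fold change −0.80, SE 0.24, adjusted p = 0.0703, edgeR). It was 53.6 and 73.0 in untreated KO1 cells and 37.9 and 23.6 after IR, and fell there by 1.06 on the log2 scale (SE 0.24, adjusted p = 0.0418). That call was lost without replicate B of the untreated KO1 cells (−0.81), without replicate B of the irradiated ones (−0.74) and with the length trend removed (−0.74). Between genotypes S100A3 stood at 0.20 (SE 0.16) before and −0.02 (SE 0.32) after IR, unlike its neighbour S100A4. S100P, which lies outside the 1q21 cluster, was 4.05 and 4.87 in untreated control cells and 2.13 and 1.86 after IR, and fell by 1.18 (SE 0.31, adjusted p = 0.0480). Of 11 other settings, 5 kept this call; it was lost with the length trend removed (−0.88), without replicate A or B of the untreated control cells (−1.32 and −1.03) and without replicate B of the irradiated ones (−1.08). In KO1 cells S100P was 1.69 and 1.90 before and 1.55 and 1.17 after IR, at −0.41 (adjusted p = 0.499). The difference of these S100P responses did not pass the interaction test (0.77, SE 0.43, adjusted p = 1.0). S100A13 and S100A1, which share 235 exon bases on opposite strands and cannot be told apart there if strand was not counted, were at −0.44 and −0.63 in control and −0.34 and −0.72 in KO1 cells, and S100A5 was at 0.88 in control cells with 5 to 20 counts; none of these passed.

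Some genes next to the cluster were higher after IR in control cells, where the called member was lower. The fused-type S100 genes, which join an S100 domain to long repeats, number 7 in these data, and 3 of them had enough counts to be tested after IR in control cells. FLG and HRNR rose, and TCHH was at −0.75 (SE 0.65, adjusted p = 0.487). Filaggrin (FLG) had 8 and 4 counts before and 79 and 267 after IR, a log2 fold change of 4.30 (SE 0.46, adjusted p = 0.00118, edgeR). Hornerin (HRNR) had 7 and 9 counts before and 27 and 81 after, a log2 fold change of 2.25 (SE 0.46, adjusted p = 0.0196). Of 16 cornified envelope and related genes, the 2 that could be tested in control cells rose, involucrin (IVL) by 1.88 (SE 0.40, adjusted p = 0.0247) and LCE1C by 2.70 (SE 0.65, adjusted p = 0.0359). IVL had 13 and 11 counts before and 42 and 76 after IR, and LCE1C had 6 and 1 before and 21 and 42 after. FLG, HRNR and LCE1C, this low in untreated cells, passed the count filter through the irradiated libraries, so the number that rose says nothing about the lists. IVL had at least 10 counts in every control library. FLG was called in all of its 10 other settings. The HRNR call was lost without replicate B of the irradiated control cells (1.90, adjusted p = 0.0921, range 3.50e-05 to 0.0921), the IVL call without replicate B of the untreated ones (1.68, adjusted p = 0.142, range 0.000210 to 0.142) and the LCE1C call without either (1.86 without the untreated and 2.69 without the irradiated replicate B). In KO1 cells FLG was at 2.17 (SE 0.58, adjusted p = 0.0549; called in 8 of 10 other settings), HRNR at 1.03 (SE 0.45, adjusted p = 0.158), IVL at 0.64 (SE 0.50, adjusted p = 0.408) and LCE1C at 0.88 (SE 0.70, adjusted p = 0.421), and none was called by the test used here. The difference in IR response between genotypes did not pass for any of these 4 genes (interaction adjusted p = 1.0, edgeR). Its lowest value was FLG at −2.12 (SE 0.96, unadjusted p = 0.0493, edgeR). In KO1 against control cells HRNR was at a log2 difference of 1.88 (SE 0.53) before IR and 0.68 (SE 0.41) after it. With 7 and 9 counts in untreated control cells, HRNR passed the count filter before IR through the KO1 libraries. Nothing is read from that value. IVL stood at 0.14 (SE 0.54) before and −1.07 (SE 0.38) after IR. After IR FLG was at −0.55 (SE 0.50) and LCE1C at −0.61 (SE 0.44). Many of these genes have few counts, and the transcripts of FLG and HRNR are long.

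Across the 8 libraries the genes whose log2 CPM ran most like S100A4 were CPLX1 (Pearson r = 0.994), HTATSF1 (0.989), HKDC1 (0.987), NEU4 (0.985) and EBF1 (0.983), of 16548 genes compared. For S100A8 they included NSMCE4A (0.993), UCKL1 (0.987), CCDC65 (0.986) and MIGA2 (0.986). S100A9 ranked 698 for S100A8, at r = 0.893, and S100A16 and S100A14 were at 0.849 and 0.847. S100A4 was at −0.05 with S100A8 and at 0.57 with S100A11. These values are descriptions over 8 libraries in 4 groups that share genotype, treatment and the length trend. The reads of S100A6 include 37 exon bases shared with an antisense gene of 42 to 80 counts, no member shared exon bases with another S100 gene, and the S100A11 pseudogene S100A11P2 had 12 to 34 counts, far under the counts of S100A11.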

How the data were processed

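Total RNA of MCF10A-Hras control and RBM6-KO1 cells was prepared with TRIzol and sequenced as TruSeq mRNA libraries. Reads were aligned to hg38, and the authors deposited 1 table of raw counts per gene for the 8 libraries; the submitters' processing notes name STAR and DESeq2, and the counting tool, annotation and strand setting are not given in the sources used here. Gene symbols and exon lengths came from GENCODE v44 (841 of 58233 identifiers did not match).

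Counts were tested with edgeR 4.0.16 in R 4.3.3 (TMM, filterByExpr, glmQLFit and glmQLFTest), each comparison on its own 4 libraries and the interaction on all 8, with Benjamini-Hochberg adjustment over all genes tested. Calls needed at least a 2-fold change and an adjusted p under 0.05. Levels are normalized CPM with TMM factors over 8 libraries, also per kb of exon; SDs are over 2 replicates. P-values measure the spread between these replicates. Scripts were tested on simulated counts. DESeq2 1.42.0, other filters, a replicate block, leaving out each library and removing the trend on gene length (limma 3.58.1 as a dependency of edgeR) were the alternatives.

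The members, partner, inducer and marker lists were chosen with earlier results of these data known. Named were the members, other S100 genes that were tested or had 10 counts in a library, genes of the partner, fused-type, epidermal and inducer lists called in any comparison, ANXA2, AGER and TLR4, and the 5 genes most like S100A4 and S100A8, of which 1 is not reported here. Markers named beside a result, and TCHH, were picked after their values were seen.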

Additional observations from a re-analysis of the deposited data

How the results depend on the processing

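The number of S100 genes called after IR in control cells, 1 (S100A8), was 0 with the DESeq2 Wald test, with no filter, with all 8 libraries in 1 fit and with the trend on gene length removed, in each of which S100A8 stayed below 0 but under 2-fold, and 0 to 2 when 1 library was left out. In KO1 cells the 1 call was 0 with the length trend removed, 2 by adjusted p alone (S100A8 and S100A9) and 0 to 1 when 1 library was left out. In untreated KO1 against control cells the 1 member past the threshold was 3 by adjusted p alone (S100A4, S100A9 and S100A14). Replicate letters did not pair untreated with irradiated libraries, whose A minus B differences correlated at −0.18 in control and −0.26 in KO1 cells. These differences correlated at 0.08 between the untreated groups. Between the irradiated groups they correlated at 0.35, so there the letters carried a shared part. With a replicate block the calls among members were 0 after IR in control cells and 1 after IR in KO1 cells, and over all genes 637 against 553 and 646 against 485; with crossed pairing, added after seeing the data, they were 965 and 1222 genes, and 0 and 1 members. Over all genes, the 182 calls of irradiated KO1 against control cells were 541 with the replicate block, 506 with no filter, 350 with the length trend removed, 340 with all 8 libraries in 1 fit, 280 with DESeq2 and 71 with at least 10 counts in every library; the IR calls were 962 and 1011 with no filter. Leaving out 1 library gave 287 to 1406 calls after IR in control cells, 289 to 1563 in KO1 cells and 169 to 477 in irradiated KO1 against control cells, and the shares of all genes printed beside the members' counts move with them. Signs were kept by S100A8, S100A9, S100A14 and S100A16 in both IR comparisons, while S100A2, S100A4, S100A6, S100A10 and S100A11 changed sign in at least 1 setting. The causes were not tested.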
